A study of Homo sapiens with 20 samples.

Results

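The 8 genes of the E2F transcription factor family, E2F1 to E2F8, were followed in RNA-seq of NGP cells treated with nutlin-3 or vehicle. The members were chosen by their gene names in the GENCODE annotation, and each gene's level was the sum over its transcripts. All 8 were among the 27697 genes tested, and 50 of the quantified transcripts belonged to them. E2F1, E2F2 and E2F3 were taken as the activators and E2F4 to E2F8 as the repressors, of which E2F7 and E2F8 are called atypical. NGP is a neuroblastoma cell line with amplified MYCN, grown here in 6-well culture flasks. Of the 20 samples, 10 received nutlin-3 as a racemic mixture at 8 µM and 10 received the vehicle, ethanol. The study's methods call the samples of a condition biological replicates, all of them from the same cell line. The time of treatment was not given in the sources used here.

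E2F proteins bind DNA beside genes of the cell cycle, most of them as dimers with a DP protein. E2F1, E2F2 and E2F3 switch on genes for DNA replication and are held in check by the retinoblastoma protein RB1, whereas E2F4 and E2F5 mostly work with the related pocket proteins RBL1 and RBL2 to keep such genes off. E2F6 represses without a pocket protein, within a Polycomb complex, and E2F7 and E2F8 bind DNA without a DP partner and repress genes that include E2F1. Nutlin-3 blocks the binding of MDM2 to p53, and p53 induces CDKN1A, an inhibitor of the kinases that release E2F from the pocket proteins.

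The estimated counts summed to between 14455477 and 19532971 per vehicle sample and between 15078052 and 17442896 per nutlin sample. MDM2, a target gene of p53, served as the check of the treatment and was at 199 to 290 CPM (counts scaled to library size, normalized by TMM) in vehicle and at 4797 to 6005 CPM in nutlin samples. All 9 markers of adrenergic neuroblastoma on the list, among them TH, CHGA and MYCN, were detected (3 rose, 5 fell and 1 was not called), and their summed level was 7890 to 9021 CPM in vehicle and 7580 to 9155 CPM in nutlin samples. The 13 markers of fibroblasts, blood, endothelium and epithelium summed to 14.6 to 23.2 CPM in vehicle and to 39.3 to 49.9 CPM in nutlin samples. Of these 13, 4 rose (COL1A1, PECAM1, EPCAM and KRT8), 2 fell (LUM and VWF), 5 were not called, and 2 were not tested. The highest of them was COL1A1, a collagen gene of fibroblasts, with a mean of 8.91 CPM in vehicle and 35.2 CPM in nutlin samples, and its part in the results was not tested. In bulk RNA, fewer cells with a transcript and less of it per cell cannot be told apart.

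Promoter sequences are shown for the activators and for E2F7, the member that rose, so that the letters before each start can be set beside the changes reported below. Each is the 250 bases before a RefSeq start on GRCh38.p14, written from the 5′ end on the strand of the gene, with E2F motif matches in capitals. The motif searched was TTTNNCG with each N a C or a G, on both strands. The window of E2F1 is chr20:33686386-33686635 on the minus strand, and that of E2F2 is chr1:23531234-23531483 on the minus strand. E2F3 has a pair of starts, with windows chr6:20401629-20401878 and chr6:20403364-20403613 on the plus strand, and the window of E2F7 is chr12:77065570-77065819 on the minus strand.
E2F1: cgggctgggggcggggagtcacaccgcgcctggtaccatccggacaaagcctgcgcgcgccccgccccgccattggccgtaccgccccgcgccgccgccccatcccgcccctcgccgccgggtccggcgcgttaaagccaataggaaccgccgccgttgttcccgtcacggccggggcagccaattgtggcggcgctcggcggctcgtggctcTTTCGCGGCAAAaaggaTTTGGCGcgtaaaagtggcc
E2F2: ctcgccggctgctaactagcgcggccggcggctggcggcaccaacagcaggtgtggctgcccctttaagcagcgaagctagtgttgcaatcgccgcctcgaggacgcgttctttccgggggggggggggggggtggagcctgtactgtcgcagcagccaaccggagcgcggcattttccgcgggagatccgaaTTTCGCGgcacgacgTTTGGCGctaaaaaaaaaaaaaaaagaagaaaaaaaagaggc
E2F3 first start: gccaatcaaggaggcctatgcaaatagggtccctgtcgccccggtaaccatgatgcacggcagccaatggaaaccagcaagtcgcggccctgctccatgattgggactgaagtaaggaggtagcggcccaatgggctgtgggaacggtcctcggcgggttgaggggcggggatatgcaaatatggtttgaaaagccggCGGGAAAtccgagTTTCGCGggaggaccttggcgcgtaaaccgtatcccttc
E2F3 second start: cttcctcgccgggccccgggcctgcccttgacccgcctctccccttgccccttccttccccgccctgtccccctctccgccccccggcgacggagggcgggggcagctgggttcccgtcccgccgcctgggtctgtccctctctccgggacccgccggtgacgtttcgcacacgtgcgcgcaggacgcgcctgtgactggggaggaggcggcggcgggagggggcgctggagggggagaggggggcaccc
E2F7: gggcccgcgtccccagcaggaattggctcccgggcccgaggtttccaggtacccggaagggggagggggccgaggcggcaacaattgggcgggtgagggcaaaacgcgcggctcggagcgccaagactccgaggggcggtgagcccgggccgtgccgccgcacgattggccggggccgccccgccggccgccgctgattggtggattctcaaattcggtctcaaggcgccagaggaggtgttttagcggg

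The E2F1 window held 3 matches of the motif, of which 2 overlap on opposite strands, and all 3 lie within the last 40 bases before the start. The windows of E2F2 and of the first E2F3 start held 2 matches each, whereas the second E2F3 start and E2F7 held 0. Of the members not shown, E2F6 held 2 matches and E2F4 held 0. Of all 35116 RefSeq promoter windows of this length, 7.33% held at least 1 match, 0.496% at least 2 and 0.0228% at least 3. The CCAAT box, searched on both strands, occurred 3 times before E2F1, 4 times before the first start of E2F3 and 4 times before E2F7, and 32.0% of all windows held at least 1. A match is a run of letters, and binding was not measured here.

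Of the 8 E2F genes, 6 were SDE (significantly differentially expressed) and lower after nutlin, 1 was SDE and higher, and 1 was not called. Over all genes tested, 26.5% were SDE and lower and 32.3% SDE and higher. All 3 activators fell. Of the 5 repressors, E2F5, E2F6 and E2F8 fell, E2F7 rose and E2F4 was not called. The median log2 fold change (LFC, nutlin against vehicle) was -3.15 for the activators and -0.39 for the repressors, beside 0.19 for all genes tested and -0.08 for the 15168 genes whose mean reached 1 CPM. Every nutlin sample lay below every vehicle sample for 5 of the E2F genes and above for 1, which was the case for 16.6% and 12.2% of all genes. The repressors thus did not move as a group, and their LFC ran from -4.06 for E2F8 to 1.39 for E2F7.

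**Figure D1:**
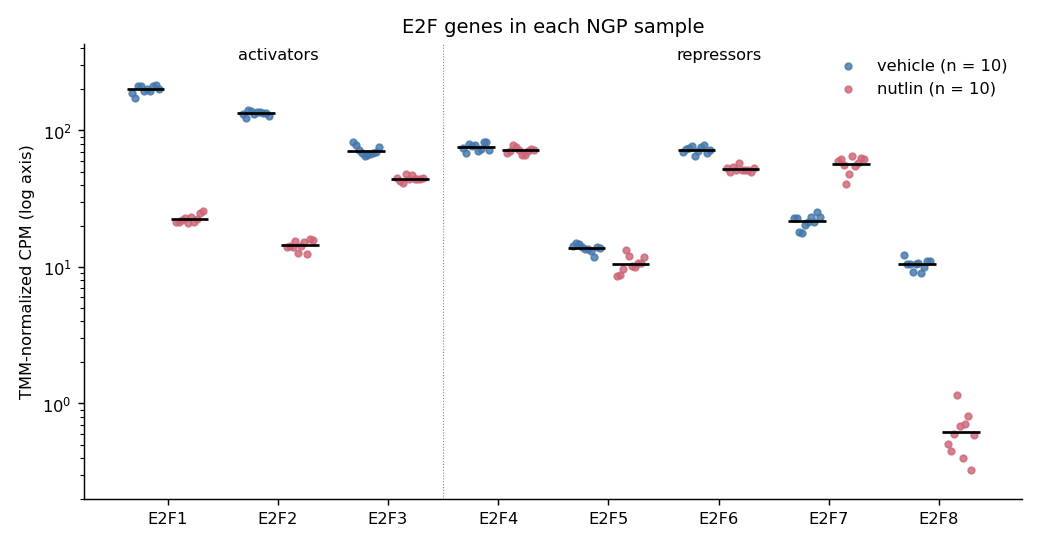
TMM-normalized CPM on a log axis of each E2F gene in 10 vehicle and 10 nutlin samples, with a point per sample and a black line at the group mean. The groups overlap for E2F4 and E2F5, lie apart with nutlin lower for E2F1, E2F2, E2F3, E2F6 and E2F8, and lie apart with nutlin higher for E2F7.

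**Figure D2:**
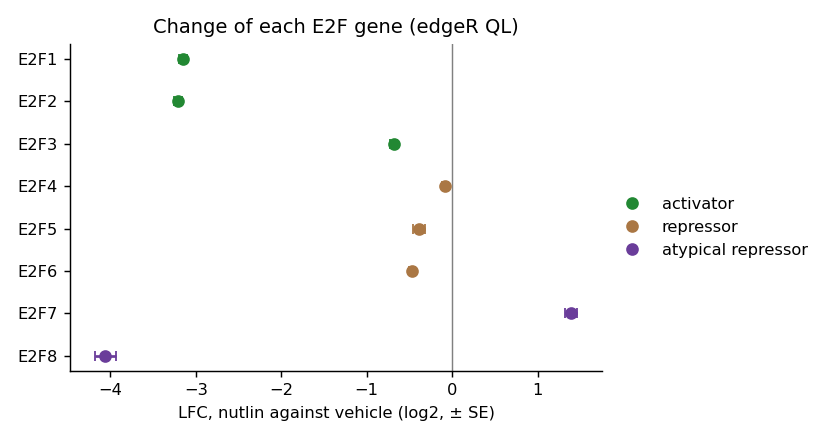
LFC of each E2F gene from edgeR QL with bars of ± SE, coloured by role. E2F1, E2F2 and E2F8 lie between -4.06 and -3.15, E2F3 to E2F6 between -0.68 and -0.08, and E2F7 at 1.39.

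E2F1 (ENSG00000101412.13, chr20:33675477-33686385, minus strand), the activator best known for driving entry into S phase, ranged from 174 to 217 CPM in vehicle samples with a median of 202 CPM. In nutlin samples E2F1 ranged from 21.0 to 25.8 CPM with a median of 22.1 CPM. The groups lay far apart, and replicate 4 was the lowest vehicle sample. The LFC of E2F1 was -3.15 (SE 0.04, adjusted p = 6.2e-30), a fitted fold of 8.88. Only 28 of the 27697 genes tested had a lower LFC.

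E2F2 (ENSG00000007968.7, chr1:23506438-23531233, minus strand), a second activator controlled by RB1, ranged from 123 to 141 CPM in vehicle samples with a median of 134 CPM. In nutlin samples E2F2 was at 12.4 to 16.1 CPM with a median of 14.2 CPM. The groups were again far apart. The LFC of E2F2 was -3.21 (SE 0.04, adjusted p = 2.26e-30), a fitted fold of 9.26, and the SE intervals of E2F1 and E2F2 overlapped. The TPM (reads per transcript length, scaled to the library) of E2F1 was 3.08 ± 0.18 times that of E2F2 in vehicle and 3.23 ± 0.25 times in nutlin samples (mean ± SD, n = 10 each), so both fell by about the same factor.

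E2F3 (ENSG00000112242.16, chr6:20401879-20493714, plus strand) makes the activator E2F3a from its first start and the shorter E2F3b, which lacks the first exon of E2F3a, from the second. The gene as a whole was at 65.1 to 82.0 CPM in vehicle samples with a median of 69.0 CPM. In nutlin samples E2F3 was at 41.0 to 47.7 CPM with a median of 44.2 CPM. The groups did not overlap, but the change was much smaller than those of E2F1 and E2F2. The LFC of E2F3 was -0.68 (SE 0.04, adjusted p = 9.76e-15).

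The transcripts from the starts of E2F3 differed in their change. E2F3-201, which begins at base 20401879, was at 9.56 to 14.2 TPM in vehicle and at 3.77 to 6.06 TPM in nutlin samples. Its LFC was -1.13 (SE 0.09, adjusted p = 4.36e-10), and the groups lay apart. E2F3-202, which begins at base 20403679, had a mean of 5.56 TPM in vehicle and 5.39 TPM in nutlin samples, with an LFC of -0.04 (SE 0.12, adjusted p = 0.889) and groups that overlapped. The share of E2F3 TPM from the first start was 66.6% ± 4.86 in vehicle and 48.1% ± 8.52 in nutlin samples (SD, n = 10 each). That share was lower by 18.5 points after nutlin (permutation test, two-sided, p = 0.00012), although the lowest vehicle sample at 59.3% lay below the highest nutlin sample at 65.6%. The window above that borders the first start holds 2 motif matches and 4 CCAAT boxes, and the second window holds neither. That second window ends at base 20403613, short of the start of E2F3-202, so the letters just before E2F3-202 are not in it. A link between the matches and the changes was not tested.

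**Figure D3:**
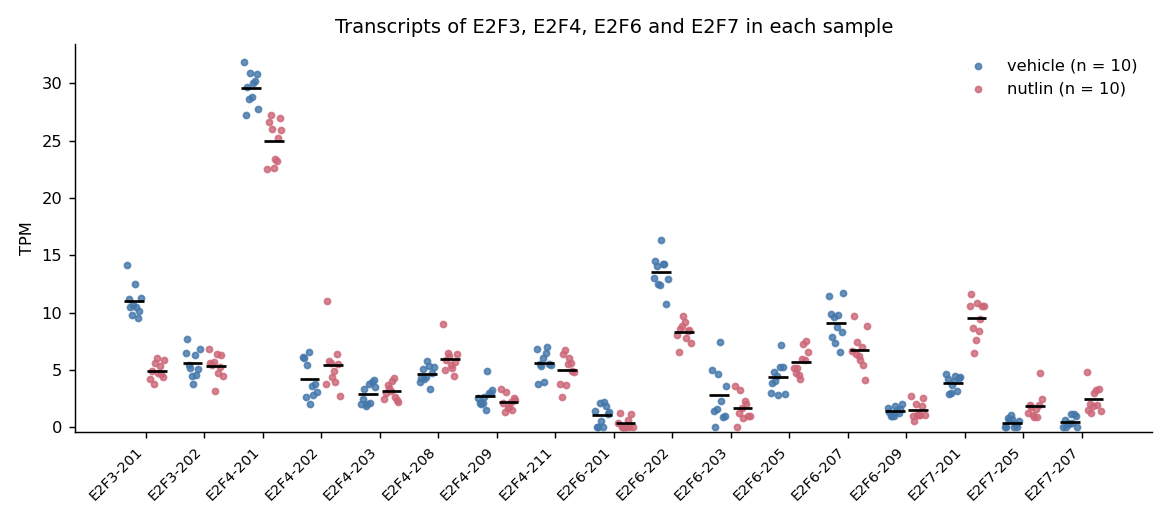
TPM of the transcripts of E2F3, E2F4, E2F6 and E2F7 with a mean of at least 1 TPM in a condition, in 10 vehicle and 10 nutlin samples, with a point per sample and a black line at the group mean. The groups lie apart for E2F3-201, E2F4-201 and E2F6-202 with nutlin lower, lie apart for E2F7-201 and E2F7-207 with nutlin higher, and overlap for the others, E2F3-202 among them.

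E2F4 (ENSG00000205250.9, chr16:67192155-67198918, plus strand), the main E2F of resting cells, ranged from 68.0 to 83.0 CPM in vehicle samples with a median of 75.7 CPM. In nutlin samples E2F4 ranged from 66.5 to 78.4 CPM with a median of 71.3 CPM. The groups overlapped over most of their range. The LFC of E2F4 was -0.08 (SE 0.04, p = 0.0432, adjusted p = 0.0709 by edgeR QL), which was not called. Of the 10 tested transcripts of E2F4, the main coding transcript E2F4-201 fell from a mean of 29.6 to 25.0 TPM (LFC -0.23, SE 0.05, adjusted p = 0.00206). The retained-intron transcript that begins at base 67192185 rose from a mean of 4.62 to 5.98 TPM (LFC 0.39, SE 0.11, adjusted p = 0.00884), with groups that overlapped. The other 8 transcripts tested were not called. Among all 128634 transcripts tested, 12.2% were SDE and higher and 10.4% SDE and lower.

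E2F5 (ENSG00000133740.11), the other E2F that works with RBL1 and RBL2, was at 11.8 to 15.0 CPM in vehicle samples with a median of 13.9 CPM. In nutlin samples E2F5 was at 8.59 to 13.2 CPM with a median of 10.4 CPM. Of the nutlin samples, 7 lay below every vehicle sample and 3 lay among them. The LFC of E2F5 was -0.39 (SE 0.07, adjusted p = 1.64e-05), a fitted fold of 1.31. E2F5 rested on 135 to 235 estimated counts per sample. Of its 6 tested transcripts 0 were called, while 12.2% of all transcripts tested rose and 10.4% fell. RBIS lies across from E2F5 on the opposite strand with 394 to 816 counts per sample, and whether the authors' kallisto run used the strand of the reads was not given in the sources used here.

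E2F6 (ENSG00000169016.17, chr2:11444375-11466177, minus strand), the repressor of the Polycomb complex PRC1.6, ranged from 65.1 to 78.6 CPM in vehicle samples with a median of 72.8 CPM. In nutlin samples E2F6 ranged from 49.5 to 57.9 CPM with a median of 51.4 CPM. The groups lay apart, and nutlin replicate 6 was the highest of its group. The LFC of E2F6 was -0.47 (SE 0.04, adjusted p = 2.22e-12), a fitted fold of 1.39. Among 11 tested transcripts of E2F6, 2 fell, the coding E2F6-202 from a mean of 13.5 to 8.28 TPM and E2F6-207, annotated for nonsense-mediated decay, from 9.12 to 6.78 TPM. Their LFC were -0.68 (SE 0.08, adjusted p = 7.09e-07) and -0.41 (SE 0.12, adjusted p = 0.0169). Of all transcripts tested, 10.4% were SDE and lower.

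E2F7 (ENSG00000165891.16, chr12:77021248-77065569, minus strand), an atypical repressor and a known target gene of p53, was the E2F gene that rose. E2F7 was at 17.7 to 25.2 CPM in vehicle samples with a median of 22.0 CPM. In nutlin samples E2F7 was at 40.4 to 64.9 CPM with a median of 58.5 CPM. The groups lay apart, and nutlin replicates 4 and 6 were the lowest of their group. The LFC of E2F7 was 1.39 (SE 0.07, adjusted p = 1.4e-16), a fitted fold of 2.63. Of the 7 tested transcripts of E2F7, 6 rose, and the full-length coding transcript E2F7-201 went from a mean of 3.88 to 9.49 TPM (LFC 1.31, SE 0.09, adjusted p = 1.73e-10). E2F7-205 and E2F7-207, which begin within the gene, had means of 0.408 and 0.493 TPM in vehicle and 1.85 and 2.45 TPM in nutlin samples. The window before the main start of E2F7 held 0 matches to the decamer of the p53 response element, which 5.57% of all windows held, and bases outside that window were not searched.

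E2F8 (ENSG00000129173.13, chr11:19224063-19241620, minus strand), the other atypical repressor, moved opposite to E2F7. E2F8 was at 9.05 to 12.2 CPM in vehicle samples with a median of 10.6 CPM. In nutlin samples E2F8 was at 0.328 to 1.16 CPM with a median of 0.596 CPM. In CPM, nutlin replicate 4 held the least E2F7 and the most E2F8 of its group. In TPM, the least E2F7 was in nutlin replicate 6 and the most E2F8 in nutlin replicate 8. The LFC of E2F8 was -4.06 (SE 0.12, adjusted p = 3.82e-22), and of the 27697 genes tested only 1 had a lower LFC. The value after nutlin rested on 5 to 17 estimated counts per sample, against 137 to 185 in vehicle, so the fitted fold of 16.7 is less precise than those of E2F1 and E2F2. In TPM, E2F7 was 1.22 ± 0.29 times E2F8 in vehicle and 77.3 ± 44.2 times E2F8 in nutlin samples (SD, n = 10 each).

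Levels of the members can be compared with each other in TPM, which corrects for transcript length. The sums take in retained-intron and nonsense-mediated decay transcripts, which E2F4 to E2F7 have and the activators do not. In vehicle samples the main coding transcripts of E2F4, E2F6 and E2F2 were at means of 29.6, 13.5 and 27.5 TPM. In nutlin samples those of E2F6, E2F7 and E2F1 were at 8.28, 9.49 and 9.91 TPM. The orders and shares below were not taken over coding transcripts alone. E2F1 was the highest in vehicle samples at 89.0 ± 5.10 TPM, followed by E2F4 at 51.5 ± 2.96, E2F6 at 34.2 ± 3.04, E2F2 at 29.0 ± 2.46, E2F3 at 16.6 ± 2.03, E2F5 at 9.46 ± 1.16, E2F7 at 4.96 ± 0.55 and E2F8 at 4.26 ± 0.99 TPM (SD, n = 10). The ranges of E2F6 and E2F2 overlapped, as did those of E2F7 and E2F8, and the other neighbours lay apart. After nutlin the order of TPM levels was E2F4 at 48.1 ± 3.49, E2F6 at 26.3 ± 1.67, E2F7 at 15.9 ± 3.03, E2F3 at 10.3 ± 0.73, E2F1 at 9.91 ± 0.90, E2F5 at 6.86 ± 1.40, E2F2 at 3.08 ± 0.33 and E2F8 at 0.258 ± 0.13 TPM (SD, n = 10). E2F1 thus went from the first place to the fifth and E2F7 from the seventh to the third. After nutlin, however, the ranges of E2F7 and E2F3, of E2F3 and E2F1, and of E2F1 and E2F5 overlapped. E2F1 made up 37.3% of the summed E2F TPM in vehicle and 8.20% in nutlin samples. The share of E2F4 was 21.6% in vehicle and 39.9% in nutlin samples, and that of E2F7 was 2.08% and 13.1%.

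The summed TPM of the activators was 135 ± 7.82 in vehicle and 23.3 ± 1.69 in nutlin samples, and that of the repressors was 104 ± 6.32 and 97.4 ± 5.35 (SD, n = 10 each). The summed activator level did not overlap between conditions, whereas the summed repressor level did, at 96.8 to 116 TPM in vehicle and 85.7 to 105 TPM in nutlin samples. The ratio of activator to repressor TPM ranged from 1.23 to 1.36 in vehicle with a median of 1.28, and from 0.219 to 0.258 in nutlin samples with a median of 0.239. In every vehicle sample the activators were above the repressors, and in every nutlin sample they were below. The repressor sum takes in retained-intron and nonsense-mediated decay transcripts of E2F4 to E2F7. The ratio was not taken over coding transcripts alone. The ratio is a score over the members and was not tested. Its mean was 2.09 in vehicle and 0.425 in nutlin samples when CPM were used in place of TPM, and 1.13 and 0.133 without E2F3. Without E2F7 and E2F8 the repressor sum was 95.1 ± 5.58 TPM in vehicle and 81.3 ± 4.46 TPM in nutlin samples.

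**Figure D4:**
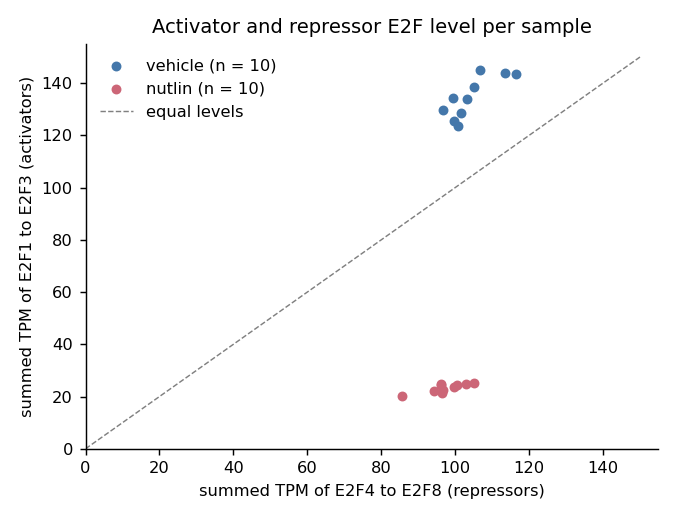
Summed TPM of the activators E2F1 to E2F3 against the summed TPM of the repressors E2F4 to E2F8, with a point per sample and a dashed line where both are equal. The 10 vehicle samples lie above the line with 123 to 145 TPM of activators, and the 10 nutlin samples lie below it with 20.3 to 25.2 TPM.

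Of the 50 E2F transcripts, 41 were tested, of which 7 were SDE and higher, 9 SDE and lower and 25 not called. Over all 128634 transcripts tested, 12.2% were SDE and higher and 10.4% SDE and lower. Of the 7 that rose, 6 belonged to E2F7, and with the filterByExpr filter on low counts 4 rose. E2F1 had 1 transcript and E2F2 had 2, all of them lower after nutlin. The share of a gene's TPM by start was tested for 12 starts of E2F3, E2F4, E2F5, E2F7 and E2F8. Next to that of E2F3, the share from the main start of E2F7 was 82.1% ± 10.1 in vehicle and 73.6% ± 5.63 in nutlin samples (SD, n = 10 each; permutation test, two-sided, p = 0.0303, not adjusted for the 12 tests). With counts in place of TPM the difference in this E2F7 share, nutlin minus vehicle, was -1.89 points (permutation test, two-sided, p = 0.0101), much smaller than the -8.57 points in TPM. In E2F8 the share from the start at base 19241598 was 24.8% ± 14.6 in vehicle and 56.4% ± 40.1 in nutlin samples (permutation test, two-sided, p = 0.033, not adjusted), with nutlin values between 0.0% and 100.0% on those few counts, and p was 0.12 when counts were used in place of TPM. The p-values of transcripts leave out the error with which reads were assigned to transcripts that share sequence.

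The dimer partners of the E2F proteins fell with them to different extents. TFDP1, the partner shared by most E2F proteins, fell from a mean of 141 to 66.3 CPM (LFC -1.09, SE 0.04, adjusted p = 4.11e-20), and every nutlin sample lay below every vehicle sample. TFDP2 fell from 58.2 to 52.7 CPM (LFC -0.14, SE 0.04, adjusted p = 0.001) with groups that overlapped, was not called with the filterByExpr filter (LFC -0.06), and TFDP3 was not tested. The pocket proteins, which bind E2F1 to E2F5, moved apart from each other. RB1 fell from 60.6 to 48.2 CPM (LFC -0.33, SE 0.06, adjusted p = 2.29e-05) and RBL1 fell from 24.4 to 7.41 CPM (LFC -1.72, SE 0.06, adjusted p = 1.32e-20). RBL2, the pocket protein of resting cells that pairs with E2F4, rose from 47.3 to 83.1 CPM (LFC 0.81, SE 0.04, adjusted p = 1.95e-17). RB1 overlapped between the groups, and RBL1 and RBL2 did not.

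Upstream of the pocket proteins, 4 of 14 cyclins, CDKs and CDK inhibitors rose, 9 fell and 1 was not called, with a median LFC of -0.75. Over all genes tested, 32.3% rose and 26.5% fell. CDKN1A, the CDK inhibitor induced by p53, rose from a mean of 32.8 to 1679 CPM (LFC 5.68, SE 0.14, adjusted p = 3.85e-24). Of the other CDK inhibitors listed, CDKN1C rose, and CDKN1B, CDKN2C and CDKN2D fell. CCND2, a D-type cyclin, rose from 0.640 to 1.54 CPM (LFC 1.30, SE 0.25, adjusted p = 3.71e-05) with groups that overlapped. The far more abundant CCND1 rose from 1070 to 1457 CPM (LFC 0.45, SE 0.03), and CCND3 fell from 34.4 to 23.4 CPM (LFC -0.55, SE 0.05). CDK2, the kinase partner of cyclin E, fell from 82.8 to 9.55 CPM (LFC -3.11, SE 0.06, adjusted p = 1.22e-26), and CDC25A, the phosphatase that activates CDK2, fell from 128 to 18.2 CPM (LFC -2.81, SE 0.05, adjusted p = 1.95e-27). The LFC of CDK2 and CDC25A were thus close in size to those of E2F1 and E2F2.

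All 20 S-phase genes with known E2F sites fell, with a median LFC of -2.50 and LFC from -3.54 for GINS2 to -0.17 for TYMS. GINS2, a part of the replicative helicase, fell from a mean of 111 to 9.50 CPM (SE of the LFC 0.06, adjusted p = 1.35e-27). MCM6, another part of that helicase, fell from 258 to 23.7 CPM (LFC -3.44, SE 0.05, adjusted p = 6.52e-30). These genes thus changed in the direction of the activators and of the repressors E2F5, E2F6 and E2F8, and opposite to E2F7. Among 5 apoptosis genes with E2F sites, 1 rose, 3 fell and 1 was not called, with a median LFC of -0.50. The shares over all genes tested were 32.3% higher and 26.5% lower. BCL2L11, which promotes cell death at the mitochondria, fell from 10.5 to 6.03 CPM (LFC -0.81, SE 0.21, adjusted p = 0.00163), with groups that overlapped, and it was not called with an offset for effective length (LFC -0.15).

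Of the 8 partners of E2F6 in PRC1.6, 6 fell and 2 were not called, with a median LFC of -0.37. Beside them, 26.5% of all genes tested fell and 32.3% rose. The largest changes were those of CBX3, a reader of methylated histones, at 387 CPM in vehicle and 185 CPM in nutlin samples (LFC -1.06, SE 0.04, adjusted p = 1.87e-20), and of PCGF6, the Polycomb subunit particular to PRC1.6, at 18.2 to 23.4 CPM in vehicle and 8.65 to 11.4 CPM in nutlin samples (LFC -1.03, SE 0.06, adjusted p = 1.57e-15). Of 4 germline genes that E2F6 is known to hold off, 1 rose and 3 were not called, with a median LFC of 0.58 that rests on genes near 0. STAG3, a meiotic cohesin subunit, rose from 7.04 to 8.28 CPM (LFC 0.23, SE 0.08, adjusted p = 0.0147) with groups that overlapped, and with an offset for effective length its LFC was -0.018 and not called. SMC1B, SLC25A31 and MAEL each had means of at most 0.206 CPM in both conditions.

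The 4 genes on the list of E2F turnover, whose products take part in or limit the breakdown of E2F or cyclin proteins, all fell, with a median LFC of -1.60. CCNF, the ubiquitin ligase subunit cyclin F, fell from a mean of 108 to 24.1 CPM (LFC -2.16, SE 0.06, adjusted p = 6.16e-24), and FBXO5, an inhibitor of the anaphase-promoting complex, fell from 54.0 to 12.8 CPM (LFC -2.07, SE 0.05, adjusted p = 2.91e-24). SKP2, a ubiquitin ligase subunit, fell from 115 to 53.0 CPM (LFC -1.12, SE 0.04, adjusted p = 8.81e-20), and FZR1, an activator of the anaphase-promoting complex, fell from 115 to 54.1 CPM (LFC -1.08, SE 0.04, adjusted p = 1.91e-19). Every nutlin sample lay below every vehicle sample for these 4 genes. Over all genes tested, 26.5% were SDE and lower, and 16.6% had every nutlin sample below every vehicle sample.

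**Figure D5:**
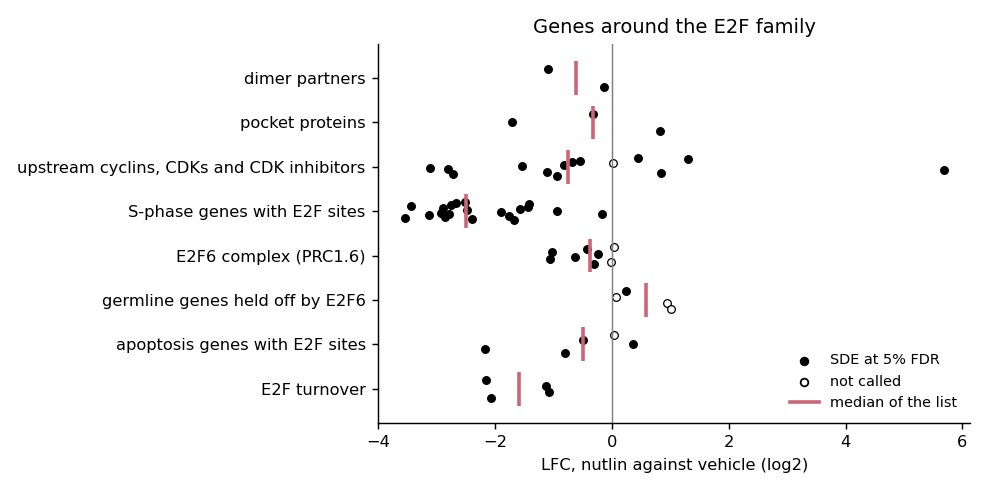
LFC of each tested gene on the 8 lists around the E2F family, with filled points for SDE genes at 5% FDR, open points for genes not called and a red line at the median of the list. All 20 S-phase genes lie below 0, with a median of -2.50, and the upstream list spreads from CDK2 at -3.11 to CDKN1A at 5.68.

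Among 12797 protein-coding genes whose mean reached 1 CPM, the gene whose pattern over the 20 samples was nearest to E2F1 was E2F2, and the gene nearest to E2F2 was E2F1. The measure was the root mean square difference of log2(CPM + 1), each gene taken from its vehicle mean, and it was 0.0818 for this pair. This distance takes in the change after nutlin as well as the spread within groups, and the LFC of E2F1 and E2F2 were close (-3.15 and -3.21). Both had MYBL2 as their second nearest gene, at 0.105 from E2F1 and 0.125 from E2F2. The nearest genes of the other members were WASHC5 for E2F3 at 0.0706, DDX56 for E2F4 at 0.0413, PRMT6 for E2F5 at 0.105, ALAD for E2F6 at 0.0565, MAP3K1 for E2F7 at 0.122 and ANLN for E2F8 at 0.153. E2F8 thus had its nearest gene farther away than any other member did. The LFC of ANLN was -2.98 against -4.06 for E2F8. The added 1 CPM shrinks the change of E2F8, at a mean of 0.622 CPM in nutlin samples, so this LFC gap is not the distance.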

How the data were processed

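Poly(A) RNA of 20 NGP samples was sequenced in pairs of 75 nucleotides (TruSeq stranded mRNA). The authors quantified it with kallisto 0.42.4 on GRCh38 transcripts of Ensembl release 85 and deposited estimated counts, effective lengths and TPM for each of 198968 transcripts, with no filter stated. The deposited estimated counts are not normalized, and the deposited TPM are scaled by effective length and library size.

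Condition and replicate number were taken from the labels. Of the transcripts, 191106 were matched to genes by their identifiers with GENCODE release 44, and the 7862 not matched were left out. The matched share of the counts was 96.66% to 96.78% in vehicle and 95.71% to 95.95% in nutlin samples. Estimated counts were summed per gene and rounded. Every protein-coding or lncRNA gene that had 1 count or more in both conditions entered the test, which was the quasi-likelihood F-test of edgeR 4.0.16 (edgeR QL, run in R 4.3.3) after TMM. Condition was its single covariate, and p-values were adjusted over all genes after Benjamini-Hochberg at 5% FDR. The SE of an LFC is its size divided by the square root of F. Transcripts were tested in the same way. CPM are TMM-normalized. Shares of TPM by start (starts within 500 bases joined, shares of at least 10%) were compared by permutation tests with 100000 resamples. Counting error limits genes with few counts, E2F8 after nutlin above all.

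Named were the E2F genes, their transcripts with a mean of at least 1 TPM, MDM2, every gene of lists with at most 4 genes, from longer lists up to 2 genes called with the highest and 2 with the lowest LFC, and the nearest gene of each E2F gene. A few others were named after their values were seen: the second nearest gene MYBL2, TYMS, the markers of other cells that rose and RBIS. The other D-type cyclins and CDK inhibitors were added in the same way. Some genes that this rule names are not reported here. The members and lists were chosen with earlier results of these data known. RefSeq promoter windows were found for 6 of the 8 genes. The fits were tested on simulated data. DESeq2 1.42.0, limma 3.58.1, other filters, an offset for effective length and a replicate block were alternatives. Plots were made with Python 3.11.15 and matplotlib 3.10.9.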

Additional observations from a re-analysis of the deposited data

Results flagged for a closer look

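Dixon's test at the 95% level was applied to the values of each group of 10 samples, in 20 groups. It marked 1 of them, and chance marks about 1 in 20. E2F6 was at 57.9 CPM in nutlin replicate 6, while the other 9 nutlin samples lay between 49.5 and 53.9 CPM. The gap to the nearest sample was 0.468 of the range of the group, against a critical value of 0.466. This sample still lay below every vehicle sample, the lowest of which was at 65.1 CPM.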

How the results depend on the processing

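The call and the direction of each of the 8 E2F genes stayed as reported under all 8 alternatives (DESeq2 size factors, DESeq2, limma voom, filterByExpr, at least 1 count in every sample, an effective length offset, a replicate block, and the same 16 samples without it). The LFC of E2F4 lay between -0.10 and -0.01, with adjusted p from 0.0567 to 0.885, that of E2F5 between -0.47 and -0.30, and that of E2F7 between 1.36 and 1.67. The median LFC of all genes was 0.03 to 0.24 over these settings, the lowest with filterByExpr, which tests fewer genes. Of the E2F transcripts, 4 instead of 7 were SDE and higher with filterByExpr and with the replicate block. Of 371 values of single genes under alternatives, 360 kept their direction and call, 9 lost the call and 2 turned their direction, both with the effective length offset: STAG3 (LFC -0.018) and SMC1B (LFC -0.012), which was called in neither setting. The 9 were 6 for DDX56 and 1 each for BCL2L11, STAG3 and TFDP2.

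The activator to repressor ratio of vehicle and nutlin samples was 2.09 and 0.425 in CPM, 1.42 and 0.287 without E2F7 and E2F8 and 1.13 and 0.133 without E2F3. Shares by start moved more. With counts in place of TPM the difference, nutlin minus vehicle, was 4.91 points for the first start of E2F5 (p = 0.0432, permutation test) and -6.37 points for its second (p = 0.0352), -1.89 points for the main start of E2F7 (p = 0.0101), and 22.7 points for the E2F8 start at base 19241598 (p = 0.12). With starts joined only within 50 bases, that of the first start of E2F5 was -4.78 points. With the replicate block it was 0.583 points for the E2F4 start at base 67193978, and 7.68 and -7.68 points for the inner and the main start of E2F7 (p = 0.0703). The cause of these moves was not tested.

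Replicate numbers shared by 8 pairs of samples did not pair them. The correlation of same-numbered samples was -0.10 to 0.11, over 0.1 in 1 pair, and 0 vehicle samples correlated best with their own number. With the replicate block, 1 E2F gene rose and 6 fell.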
